A study of Mus musculus with 4 samples.

Results

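The 3′ ends of protein-coding genes that lie away from promoters were described by the ATACseq and H2A.Z peaks called in mouse liver. Of the 20807 protein-coding genes of GENCODE vM21 on chromosomes 1 to 19, 12477 (60.0%) had a 3′ end more than 5 kb from the transcription start site (TSS) of every annotated gene of any type. The region of each was 1 kb on either side of the 3′ end. The other 8330 had a TSS nearer than that, often their own. Because 1728 of the regions overlapped that of another gene in the set, the 12477 regions merged into 11592 stretches that held 0.967% of the bases of these chromosomes. Opposite-strand 3′ ends within 1 kb of each other, as at convergent genes, made up 1028 of the set.

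The deposited series profiled chromatin in liver with and without the epigenetic regulator UHRF1. The study that reported it describes its H2A.Z and ATACseq profiles as those of WT liver. The libraries analysed here were ATACseq and H2A.Z ChIPseq from male C57Bl/6 mice aged 8 to 12 weeks on a normal diet, with 1 library per genotype and assay and 4 libraries in all. The control, called WT, carried the floxed Uhrf1 alleles without Cre. Uhrf1hepKO carried the same floxed alleles with Alb:Cre, which deletes Uhrf1 in hepatocytes. The state of the gene in other cells of the liver was not examined. The tissue was whole liver, so fewer cells of a type and a weaker signal per cell cannot be told apart, and with 1 library per condition there was no test: every interval below is a 95% interval for counting error only.

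At the 3′ end of a gene the nascent RNA is cut and polyadenylated, and RNA polymerase II goes on for some distance before it leaves the DNA. H2A.Z is a variant of histone H2A that is best known at the nucleosomes beside promoters, and it is also found at enhancers. ATACseq uses the Tn5 transposase, which inserts into accessible DNA, so that peaks mark open sites such as active promoters, enhancers and sites bound by the insulator protein CTCF.

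Most of these 3′ ends had no peak in any list. In all, 441 (3.53%) had a peak of at least 1 of the 4 lists within 1 kb, and 12036 had none. The fold of a peak, used throughout to rank peaks within a list, is its read pileup over the local background as the peak caller gave it. The 3 sequences that follow lie under strongly enriched ATACseq peaks of these regions that were called in both genotypes, were at most 300 bp long and touched no exon, so that the kinds of DNA under strong signals can be read directly. They are from the RefSeq FASTA of GRCm38, on the strand of the gene and 5′ to 3′, with CpGs in capitals. The first is at chr13:48878660-48878886 beyond Fam120a, which encodes an RNA-binding protein. The second is at chr2:26842006-26842287 beyond Abo, a glycosyltransferase gene, and the last is at chr3:87986963-87987190 beyond Bcan, which encodes the proteoglycan brevican. All are on the minus strand.
Fam120a: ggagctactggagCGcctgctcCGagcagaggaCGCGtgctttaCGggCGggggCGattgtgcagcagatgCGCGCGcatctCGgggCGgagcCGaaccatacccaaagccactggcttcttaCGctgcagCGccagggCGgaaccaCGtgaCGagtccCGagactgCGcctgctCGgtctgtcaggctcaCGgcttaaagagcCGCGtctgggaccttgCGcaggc
Abo: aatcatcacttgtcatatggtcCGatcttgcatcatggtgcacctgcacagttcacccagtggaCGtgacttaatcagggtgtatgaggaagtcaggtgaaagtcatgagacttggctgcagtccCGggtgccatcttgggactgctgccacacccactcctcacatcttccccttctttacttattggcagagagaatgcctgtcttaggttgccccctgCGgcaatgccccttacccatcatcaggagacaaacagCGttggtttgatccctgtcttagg
Bcan: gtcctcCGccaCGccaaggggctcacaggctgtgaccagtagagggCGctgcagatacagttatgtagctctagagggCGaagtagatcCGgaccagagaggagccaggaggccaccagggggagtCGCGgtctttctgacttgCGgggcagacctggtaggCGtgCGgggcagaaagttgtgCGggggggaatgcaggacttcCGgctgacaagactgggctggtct
These 3 sequences differed in composition. The peak beyond Fam120a held 25 CpGs in 227 bp at 66.5% GC, and that beyond Bcan held 12 in 228 bp and a match to CCACNAGNG, a stretch of the CTCF motif. Of 32-mers under the peak beyond Abo, 64.1% recurred elsewhere in the genome.

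The 3 most enriched H2A.Z peaks that met the same criteria were added after values were seen. They lie at chr3:98805016-98805148 beyond Hsd3b6, a hydroxysteroid dehydrogenase gene, at chr1:131126441-131126587 beyond Dyrk3, a protein kinase gene, and at chr14:8430806-8430947 beyond 4930452B06Rik, all on the minus strand.
Hsd3b6: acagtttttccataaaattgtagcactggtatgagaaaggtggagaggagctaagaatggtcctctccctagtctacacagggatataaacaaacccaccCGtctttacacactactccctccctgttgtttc
Dyrk3: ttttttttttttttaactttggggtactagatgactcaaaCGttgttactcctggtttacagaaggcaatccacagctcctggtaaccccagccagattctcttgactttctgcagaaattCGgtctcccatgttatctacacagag
4930452B06Rik: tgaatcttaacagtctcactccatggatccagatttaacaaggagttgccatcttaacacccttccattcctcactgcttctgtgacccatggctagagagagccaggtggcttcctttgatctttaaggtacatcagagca
They were 133, 147 and 142 bp long, with 1, 2 and 0 CpGs and 41.5% to 45.8% GC, and so were poorer in both than the unique ATACseq sequences of Fam120a and Bcan.

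Accessible sites were rare at the 3′ ends. A WT ATACseq peak was present at 95 of 12477, or 0.761% (0.623 to 0.930%), and an Uhrf1hepKO ATACseq peak at 116, or 0.930% (0.776 to 1.11%). These came from 91 of the 10439 WT peaks and 110 of the 10636 Uhrf1hepKO peaks on these chromosomes. H2A.Z was more frequent. A WT H2A.Z peak was present at 272 of the 3′ ends, or 2.18% (1.94 to 2.45%), and an Uhrf1hepKO H2A.Z peak at 259, or 2.08% (1.84 to 2.34%), from 339 of 50665 and 316 of 46400 peaks. Within each assay the intervals of WT and Uhrf1hepKO overlapped.

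Read depth had to be estimated from the lists, which give no totals. From the commonest folds, the local background was 1.56 reads a base in WT and 2.0 in Uhrf1hepKO ATACseq, and 3.10 and 3.30 for H2A.Z. By these estimates, scaled to the shortest peak, the Uhrf1hepKO library had 1.42 times the depth of WT in ATACseq and 1.0 times in H2A.Z. The part of depth in the ATACseq counts was not tested. The labels of tissue and genotype could be checked only in part. Of 8 hepatocyte markers, 1 had ATACseq in each genotype in the 1 kb around its TSS and none had H2A.Z. Markers of Kupffer cells, endothelium and other tissues had neither, and those of cholangiocytes and stellate cells had at most 1 of 4, so the lists do not check the tissue. Uhrf1 itself had peaks of all 4 lists near its TSS, with folds of 3.96 and 4.70 for ATACseq and 6.58 and 6.04 for H2A.Z in WT and Uhrf1hepKO, so the lists do not show the deletion. Its 3′ end was 2576 bp from the nearest TSS and was not in the set.

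To check the annotated 3′ ends, the poly(A) signal was sought on the gene strand. AATAAA or ATTAAA was in the last 50 bases of 74.5% (73.7 to 75.3%) of the 12477 genes and in 5.19% (4.85 to 5.55%) of stretches of the same length taken 10 kb to either side. It was in 69.5% (59.6 to 77.8%) of the genes with a WT ATACseq peak at the 3′ end and in 72.1% (66.4 to 77.1%) of those with a WT H2A.Z peak, and both intervals include the value of all genes. For Uhrf1hepKO ATACseq and H2A.Z the shares were 73.3% and 72.2%.

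H2A.Z differed in frequency across the 3′ end. When windows of 2 kb were moved along the gene, and kept only where they were more than 5 kb from every TSS, a WT H2A.Z peak was present in 1.74% (1.5 to 2.02%) of the windows centred 5 kb upstream of the 3′ end, in 2.18% at the 3′ end and in 3.02% (2.70 to 3.37%) of those 5 kb downstream. In Uhrf1hepKO the same places had 1.73% (1.49 to 2.01%), 2.08% and 2.87% (2.55 to 3.21%). The upstream and downstream intervals did not overlap in either genotype. Inside the gene, from 2 to 10 kb upstream, the WT share stayed between 1.74% and 1.97%, and from 4 to 20 kb downstream it stayed between 2.76% and 3.27%. The interval at the 3′ end overlapped those inside the gene, and a window centred there covers gene and flank in equal parts. Of the windows centred 12 to 20 kb upstream, 90.6% to 70.4% were still inside the gene, and there the WT share was 2.06% to 2.75%.

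**Figure D1:**
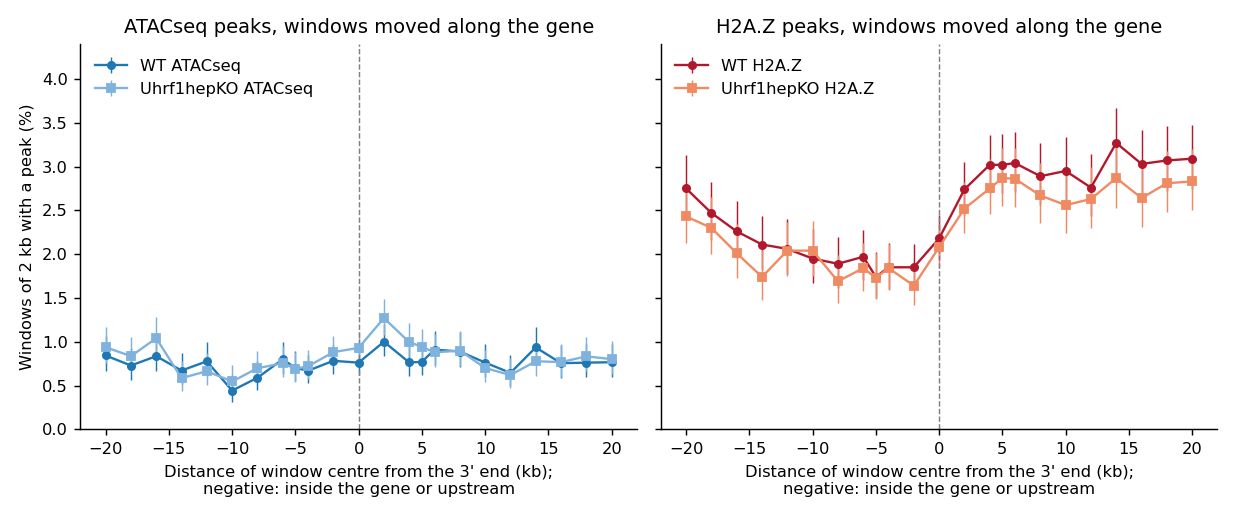
Share of 2 kb windows with a peak (y, percent) against the distance of the window centre from the 3′ end (x, kb, positive downstream), for ATACseq (left) and H2A.Z (right), with 95% Wilson intervals as bars. The WT H2A.Z share went from 1.85% at 2 kb upstream to 2.18% at the 3′ end and 3.04% at 6 kb downstream, and ATACseq stayed between 0.442% and 1.27% in both genotypes.

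The windows differ in number because some come near a TSS when moved, so the comparison was repeated over 8402 genes whose windows met the criterion 4 kb upstream, at the 3′ end and 4 kb downstream. WT H2A.Z was present at 1.73% (1.47 to 2.03%), 2.25% (1.95 to 2.59%) and 3.07% (2.72 to 3.46%) of the same genes, and Uhrf1hepKO H2A.Z at 1.74%, 2.11% and 2.77% (2.44 to 3.15%). The order was the same in both genotypes, and again the outer intervals did not overlap. At 10 kb, over the 5267 genes that met the criterion there, the outer intervals did overlap: WT H2A.Z was present at 2.11% (1.75 to 2.53%) upstream, 2.26% at the 3′ end and 2.92% (2.50 to 3.41%) downstream, and Uhrf1hepKO H2A.Z at 2.11% (1.75 to 2.53%), 2.13% and 2.54% (2.15 to 3.01%). For ATACseq, the 3 places of the 8402 genes followed at 4 kb had 0.607%, 0.607% and 0.809% (0.639 to 1.02%) in WT. In Uhrf1hepKO they had 0.667%, 0.762% and 0.988%, and the intervals overlapped in both genotypes. The highest ATACseq values were 2 kb downstream of the 3′ end, at 1.0% (0.836 to 1.20%) in WT and 1.27% (1.08 to 1.49%) in Uhrf1hepKO.

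Within 1 kb of the 3′ end, peaks lay on both sides in similar numbers. The centre of the ATACseq peak was downstream in 44 of 85 cases in WT (51.8%, 41.3 to 62.1%) and in 47 of 108 in Uhrf1hepKO (43.5%, 34.6 to 52.9%). The H2A.Z summit, the base with the highest pileup, was downstream in 162 of 323 cases in WT (50.2%, 44.7 to 55.6%) and 146 of 302 in Uhrf1hepKO (48.3%, 42.8 to 54.0%). All 4 intervals include an even split. Among WT ATACseq peaks with a fold at or above the median of the list, 26 of 39 were downstream (66.7%, 51.0 to 79.4%), and this interval does not. In Uhrf1hepKO the same choice gave 18 of 35 (51.4%, 35.6 to 67%). With regions of 2 kb on each side, 351 of 645 WT H2A.Z summits were downstream (54.4%, 50.6 to 58.2%), again without an even split. In Uhrf1hepKO these were 326 of 606 (53.8%, 49.8 to 57.7%). Both choices were among the alternatives given below, and the intervals of this share under the others included an even split. The base of the 3′ end itself was under a peak of these lists at 8, 4, 33 and 35 genes, in the order WT and Uhrf1hepKO ATACseq, then WT and Uhrf1hepKO H2A.Z.

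**Figure D2:**
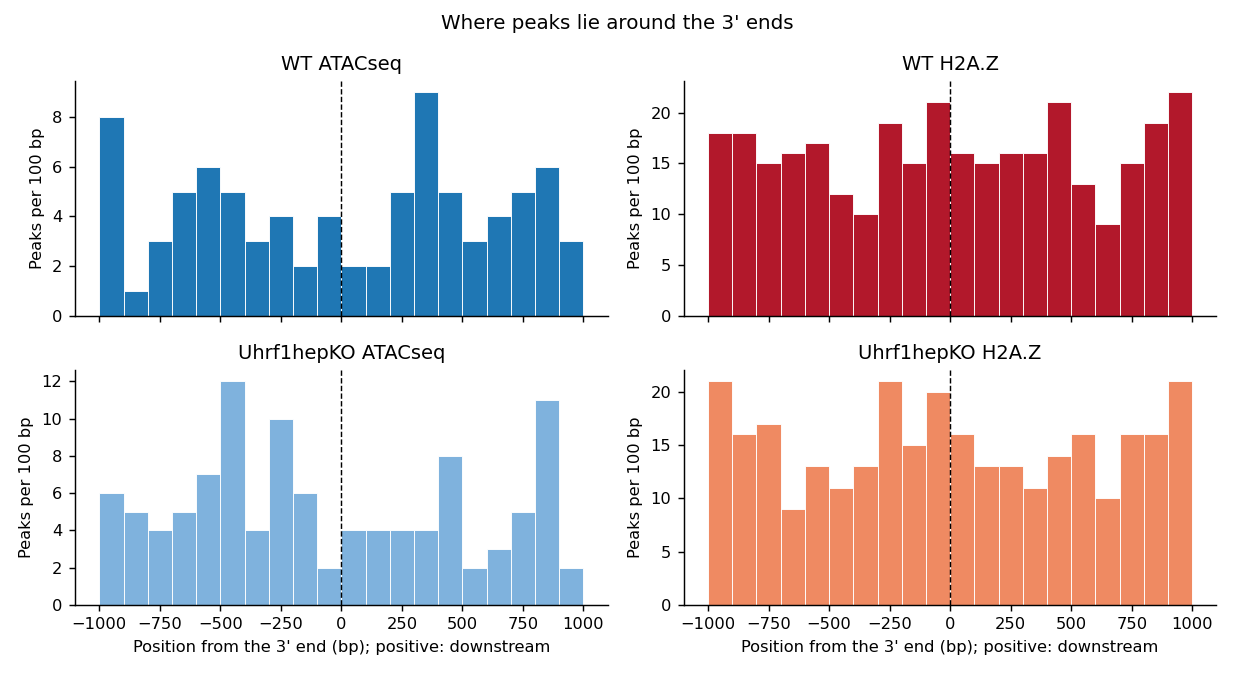
Number of peaks per 100 bp (y) by distance from the 3′ end (x, bp, positive downstream), at the peak centre for ATACseq and the summit for H2A.Z, in 1 panel per list. Bins held 1 to 9 WT and 2 to 12 Uhrf1hepKO ATACseq peaks, and 9 to 22 WT and 9 to 21 Uhrf1hepKO H2A.Z peaks.

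By length of DNA, the 3′ end regions held more ATACseq peaks than other parts of coding genes or the space outside genes, each taken as a whole. Counting only sequence more than 5 kb from every TSS, there were 3.53 WT peaks per Mb (2.81 to 4.39) at 3′ ends, 2.23 (2.13 to 2.34) in other parts of coding genes and 1.79 (1.71 to 1.87) outside annotated genes. For Uhrf1hepKO ATACseq these were 4.22 (3.43 to 5.15), 2.42 and 2.05. H2A.Z differed less, at 13.4 (11.9 to 14.9), 11.4 (11.2 to 11.7) and 12.3 (12.1 to 12.5) peaks per Mb in WT, and its ratio of 3′ ends to the space outside genes was 1.09, against 1.97 for WT ATACseq. Distal windows of the same size moved along the gene held ATACseq about as often at some places and less often at others. In WT the share was 0.761% at the 3′ end, 0.770% at 5 kb downstream and 0.843% at 20 kb upstream. In Uhrf1hepKO these were 0.930%, 0.942% and 0.938%. At 10 kb upstream the share was 0.442% (0.317 to 0.617%) in WT and 0.546% (0.404 to 0.738%) in Uhrf1hepKO, below the intervals at the 3′ end. Over the 5267 genes followed at 10 kb, the intervals upstream and at the 3′ end overlapped in both genotypes. The 3′ end regions were also richer in CpGs, with 1.05 per 100 bp, than other parts of coding genes with 0.894 and sequence outside genes with 0.698. The part of this in the densities was not tested, and the counts include the peaks of recurring sequence given below.

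Peaks were most frequent at the 3′ ends with the most CpGs. For H2A.Z the share was higher in each class of CpG content than in the one below, and for ATACseq only the highest class stood above the rest. Among the 3119 3′ ends of the highest of 4 equal classes of CpG content, with 1.40 to 9.80 CpGs per 100 bp, WT H2A.Z was present at 3.46% (2.88 to 4.16%), against 1.19% (0.862 to 1.63%) of the 3120 in the lowest class. In Uhrf1hepKO these were 3.49% (2.91 to 4.20%) and 1.03% (0.727 to 1.44%). WT ATACseq was present at 1.47% (1.11 to 1.96%) in the highest class and 0.609% (0.390 to 0.949%) in the lowest. For Uhrf1hepKO ATACseq the values were 1.54% (1.16 to 2.03%) and 0.833% (0.569 to 1.22%), with intervals that overlap. The classes between had 0.321% and 0.641% in WT and 0.737% and 0.609% in Uhrf1hepKO ATACseq. UHRF1 takes part in maintaining methylation at CpGs. DNA methylation was not analysed here.

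**Figure D3:**
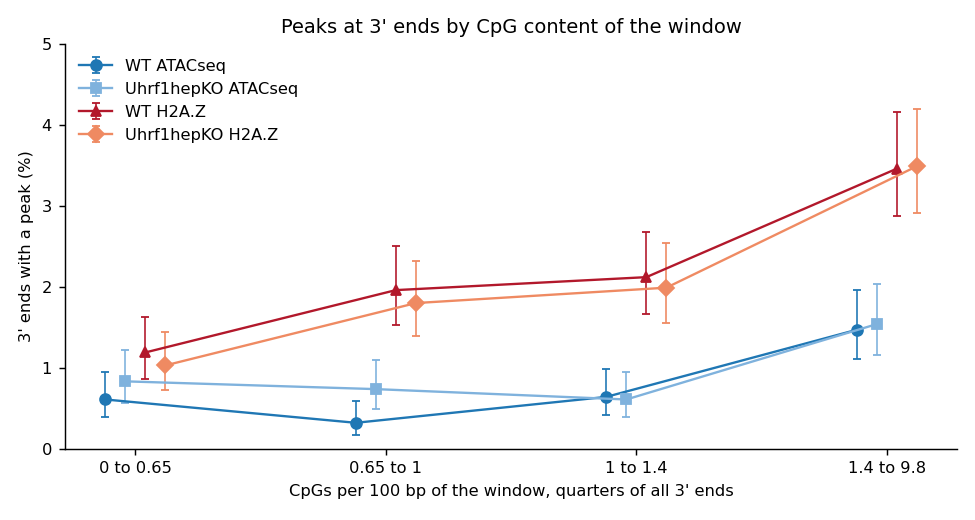
Share of 3′ ends with a peak (y, percent) in 4 equal classes of CpGs per 100 bp of the 2 kb region (x), for the 4 lists, with 95% Wilson intervals. In the highest class the H2A.Z shares were 3.46% and 3.49% and the ATACseq shares 1.47% and 1.54%, above the lower classes in each list.

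The peaks themselves resembled other distal peaks in base composition more than promoters. WT ATACseq peaks at 3′ ends had 52.8% GC and 2.46 CpGs per 100 bp, beside 51.6% and 2.14 for other peaks more than 5 kb from a TSS and 62.8% and 8.08 for peaks within 1 kb of a TSS. WT H2A.Z peaks at 3′ ends had 46.7% GC and 1.81 CpGs per 100 bp, beside 45.4% and 1.39 for other distal peaks and 3.40 CpGs per 100 bp at the TSS. The position of the peak, its centre for ATACseq and its summit for H2A.Z, was outside annotated genes for 39 of 91 WT ATACseq and 137 of 339 WT H2A.Z peaks. These shares, 42.9% and 40.4%, are near the 41.4% of the bases of the regions that lie there. The position was in a 3′ UTR for 25.3% (17.5 to 35.1%) of WT ATACseq peaks and 37.2% (32.2 to 42.4%) of WT H2A.Z peaks, where 38.3% of the bases are 3′ UTR. Coding sequence held 12.1% (6.89 to 20.4%) of the WT ATACseq peaks and 5.48% of the bases. Neither departure was seen in Uhrf1hepKO ATACseq, with 34.5% (26.3 to 43.8%) in a 3′ UTR and 8.18% (4.36 to 14.8%) in coding sequence, whose intervals include the shares of the bases. A TSS of some annotated transcript, as distinct from a gene TSS, lay within 500 bp of 5 of 91 WT and 4 of 110 Uhrf1hepKO ATACseq peaks and of 11 of 339 and 13 of 316 H2A.Z peaks.

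Short motifs were sought on both strands in the 200 bp around the centre of each ATACseq peak. CCACNAGNG, part of the CTCF motif, was in 11 of 91 WT peaks at 3′ ends (12.1%, 6.89 to 20.4%) and in 6.23% (5.52 to 7.04%) of the other 3898 WT peaks more than 5 kb from a TSS. In Uhrf1hepKO it was in 13 of 110 (11.8%, 7.04 to 19.2%) and in 6.42% (5.73 to 7.19%) of 4347. It was in 1.68% of the 200 bp around all 12477 3′ ends. The intervals overlapped narrowly in both genotypes. TGTTTAC, the core of the FOXA motif of the liver's pioneer factors, was in 1 WT and 1 Uhrf1hepKO peak at 3′ ends, or 1.10% (0.194 to 5.96%) and 0.909%, beside 4.18% and 3.89% of the other distal peaks and 4.36% of all 3′ ends. TGNACTTTG, part of the HNF4A motif, was in 3.30% and 2.73% of peaks at 3′ ends, beside 2.87% and 2.39%, and 1.14% of all 3′ ends. CCGGAAG, of ETS factors, was in 1 of 91 and 2 of 110 peaks, beside 1.92% and 1.52%, and 0.537% of all 3′ ends. These counts are too small to order the motifs.

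Genes with an ATACseq peak at the 3′ end more often had H2A.Z there. In WT, 32 of the 95 genes with ATACseq also had an H2A.Z peak in the region (33.7%, 25 to 43.7%), against 1.94% (1.71 to 2.20%) of the genes without. In Uhrf1hepKO these were 29 of 116 (25%, 18 to 33.6%) and 1.86% (1.64 to 2.11%). The distance from the ATACseq centre to the nearest H2A.Z summit was 207 bp in the median in WT, from 0 to 643 bp, and 183 bp in Uhrf1hepKO, from 6 to 1034 bp. Most H2A.Z was without ATACseq, as it was elsewhere in the lists. Of WT H2A.Z peaks at 3′ ends, 94.4% overlapped no WT ATACseq peak, beside 96.1% of other distal and 91.3% of all WT H2A.Z peaks. In Uhrf1hepKO these were 95.9%, 96.9% and 92.7%. By gene, 159 had H2A.Z in both genotypes and ATACseq in neither, and 37 had ATACseq in both and H2A.Z in neither.

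By overlap of at least 1 bp, 19 of 91 WT ATACseq peaks at 3′ ends shared bases with a WT H2A.Z peak (20.9%, 13.8 to 30.3%). This was close to the 21.0% (19.8 to 22.3%) of other distal WT ATACseq peaks and below the 49.3% (47.9 to 50.6%) of those within 1 kb of a TSS. In Uhrf1hepKO, 12 of 110 did (10.9%, 6.35 to 18.1%), beside 13.7% (12.7 to 14.8%) and 42.3% (40.9 to 43.7%). H2A.Z summits lay within 500 bp on both sides of 7 of 91 WT peaks (7.69%, 3.78 to 15%) and 8 of 110 Uhrf1hepKO peaks (7.27%, 3.73 to 13.7%). Among other distal ATACseq peaks these were 13.5% (12.4 to 14.6%) in WT and 9.09% (8.27 to 9.98%) in Uhrf1hepKO, with intervals that overlap those at 3′ ends. At the TSS they were 39.9% and 35.4%. H2A.Z on both sides of an open site was thus less frequent at 3′ ends than at promoters in both genotypes, by intervals that do not overlap. Other distal peaks were below promoters too.

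**Figure D4:**
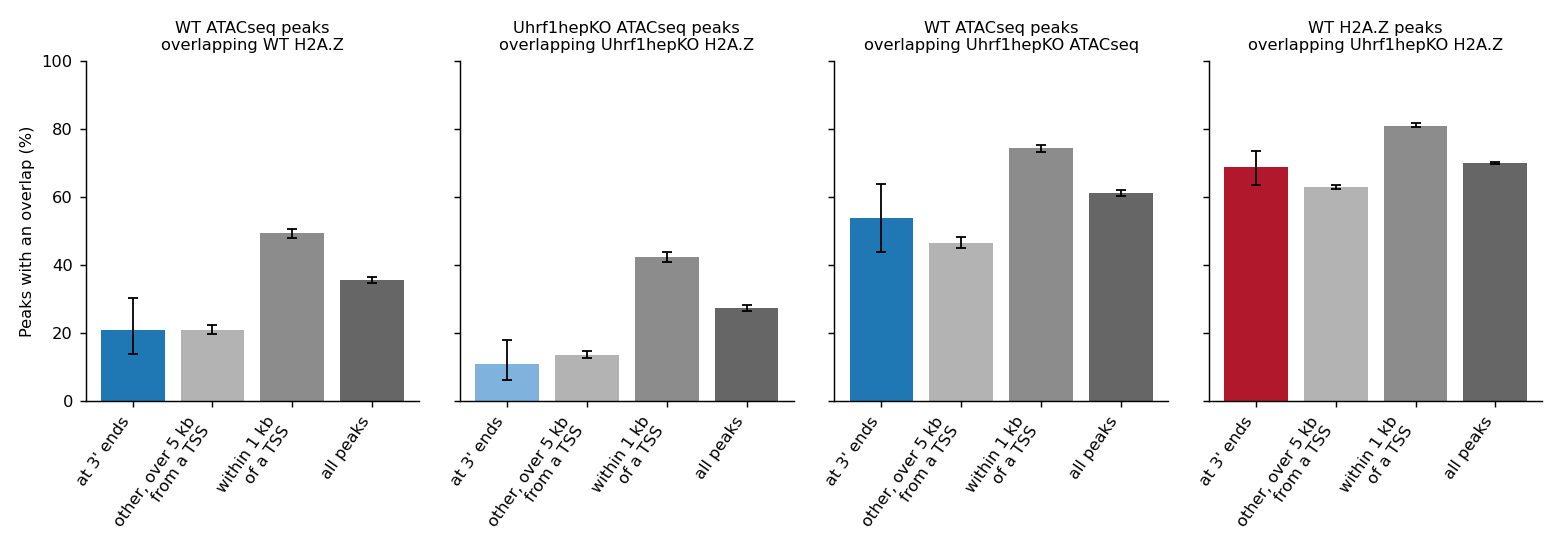
Share of peaks (y, percent) that overlap a peak of the second list by at least 1 bp, for peaks at 3′ ends (coloured), other peaks more than 5 kb from a TSS, peaks within 1 kb of a TSS, and all peaks (grey), with 95% Wilson intervals. In each panel the share at 3′ ends, 20.9%, 10.9%, 53.8% and 68.7% from left to right, was below that at the TSS.

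Peaks at 3′ ends were called in both genotypes about as often as other distal peaks of their list. Of the WT ATACseq peaks there, 42 of 91 (46.2%) had no overlap in Uhrf1hepKO, where 38.7% of all WT ATACseq peaks had none. Of the Uhrf1hepKO ATACseq peaks, 60 of 110 (54.5%) had no overlap in WT, where 39.8% of all had none. For H2A.Z, 106 of 339 WT peaks (31.3%) had no overlap in Uhrf1hepKO, beside 30.0% of all, and 87 of 316 Uhrf1hepKO peaks (27.5%) had none in WT, beside 24.3% of all. Set beside other peaks more than 5 kb from a TSS, the shared part was 53.8% (43.7 to 63.7%) at 3′ ends and 46.6% (45.0 to 48.2%) elsewhere for WT ATACseq, and 45.5% (36.5 to 54.8%) and 41.7% (40.2 to 43.2%) for Uhrf1hepKO ATACseq. It was 68.7% (63.6 to 73.4%) and 62.9% (62.3 to 63.5%) for WT H2A.Z, and 72.5% (67.3 to 77.1%) and 68.0% (67.3 to 68.6%) for Uhrf1hepKO H2A.Z. The ATACseq intervals overlapped those of other distal peaks, and the WT H2A.Z interval just missed its counterpart.

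Peaks found in 1 genotype alone had lower median folds for H2A.Z, and narrower widths in all 4 lists. The median fold of WT H2A.Z peaks was 5.61 for the 233 that were shared and 4.39 for the 106 that were not, and their median widths were 161 and 110 bp. In the Uhrf1hepKO list these were 5.81 and 4.42, and 159 and 118 bp. For WT ATACseq the median folds were 4.15 and 4.13, and the widths 254 and 182 bp. For Uhrf1hepKO ATACseq they were 3.97 and 3.64, and 246.5 and 138.5 bp. Where H2A.Z peaks of both genotypes overlapped, their summits were 17 bp apart in the median and within 25 bp in 152 of 240 pairs (63.3%, 57.1 to 69.2%). The ranks of the folds in these pairs had a Spearman correlation of 0.707, given as a description of sites that share their sequence. None of the 42 unshared WT ATACseq peaks had an Uhrf1hepKO ATACseq centre within 1 kb, which allows a share of up to 7.14%, and the nearest was 24.0 kb away in the median. Of the 106 unshared WT H2A.Z peaks, 32 had an Uhrf1hepKO summit within 1 kb. A missing peak can be a site below the caller's threshold, and the spread between mice is unknown.

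H2A.Z peaks also clustered. Of the 272 genes with a WT H2A.Z peak, 206 had 1, 54 had 2 and 12 had 3 or more. In Uhrf1hepKO these were 197, 54 and 8. Neighbouring summits in a region were 350 bp apart in the median in WT and 342 bp in Uhrf1hepKO. ATACseq gave 1 peak per gene in every case but 1. The most WT H2A.Z peaks, 4 each, were at Myh11, the smooth muscle myosin heavy chain gene, and Paqr8, a membrane progestin receptor gene. Among the genes with 3 was Acvrl1, which encodes a TGF-beta family receptor of endothelium.

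Myh11 had 4 WT H2A.Z peaks with folds of 4.39, 4.14, 7.31 and 6.34 at -569, -195, 7 and 354 bp from the 3′ end, negative being inside the gene. Its 2 Uhrf1hepKO peaks, of 4.88 and 8.37, were at -196 and 15 bp. Paqr8 had 4 WT peaks from -555 to 946 bp with folds of 4.39 to 7.07, and 3 Uhrf1hepKO peaks with folds of 4.65 to 6.74. Neither had an ATACseq peak there. Acvrl1 had 3 WT H2A.Z peaks, the strongest of 8.04 at 448 bp, next to a WT ATACseq peak of 5.66 at 253 bp. In Uhrf1hepKO it had H2A.Z peaks of 5.58 and 7.67 and no ATACseq peak. The 3 genes were chosen for their number of WT peaks, so the smaller number in Uhrf1hepKO is a description.

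The ATACseq peaks with the highest folds were in part repeated sequence. The peak beyond Wls, which encodes the carrier that Wnt proteins need for secretion, had a fold of 22.6 in WT and 25.6 in Uhrf1hepKO, and all its 32-mers recurred. Lars2, the mitochondrial leucyl-tRNA synthetase gene, had a peak in its 3′ UTR, at -634 bp, counted as negative inside the gene, of 12.5 in WT and 12.0 in Uhrf1hepKO, with 64.6% of its 32-mers recurring. Gm10251 had peaks of 7.91 and 6.48 with 95.8% recurring. None of these 3 had H2A.Z. Fam120a, with no recurring 32-mer, had ATACseq peaks of 9.69 in WT and 6.09 in Uhrf1hepKO at 446 and 464 bp downstream. It had WT H2A.Z peaks of 4.14 and 3.66 at 201 and 681 bp, on either side of the open site, and an Uhrf1hepKO H2A.Z peak of 5.58 at 205 bp.

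Ripor1 had a WT ATACseq peak of 5.99 at 343 bp, in an annotated intron of another gene, with a CTCF part motif, and no other peak. In Uhrf1hepKO, Srxn1, the sulfiredoxin gene, had an ATACseq peak of 6.59 at 729 bp, and Rap1gap, a GTPase activator gene, had one of 6.41 at 440 bp with a CTCF part motif. Neither had a peak of the other 3 lists. All 3 sites were thus called in 1 genotype alone.

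Over all peaks at 3′ ends, more than 50% of the 32-mers recurred in 17 of 91 WT and 28 of 110 Uhrf1hepKO ATACseq peaks, and in 16 of 339 WT and 20 of 316 Uhrf1hepKO H2A.Z peaks. Many lay on chromosome 14 between 3 and 8 Mb, among predicted genes such as Gm10251, where 11 WT and 20 Uhrf1hepKO ATACseq peaks had a median of 100% recurring 32-mers. The exception was Dnase1l3, a DNase gene, whose peaks of 4.01 in WT and 3.74 in Uhrf1hepKO held 3.66% and none. There, 11 of the 94 3′ ends had a WT and 19 an Uhrf1hepKO ATACseq peak, and none had H2A.Z, which allows a share of up to 3.19%. How the authors placed reads with several equally good positions is not given in the sources used here, so these members are uncertain. Without peaks of mainly recurring 32-mers, 0.625% (0.501 to 0.779%) of the 3′ ends had a WT and 0.713% (0.580 to 0.877%) an Uhrf1hepKO ATACseq peak, and 2.08% and 1.96% had H2A.Z.

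**Figure D5:**
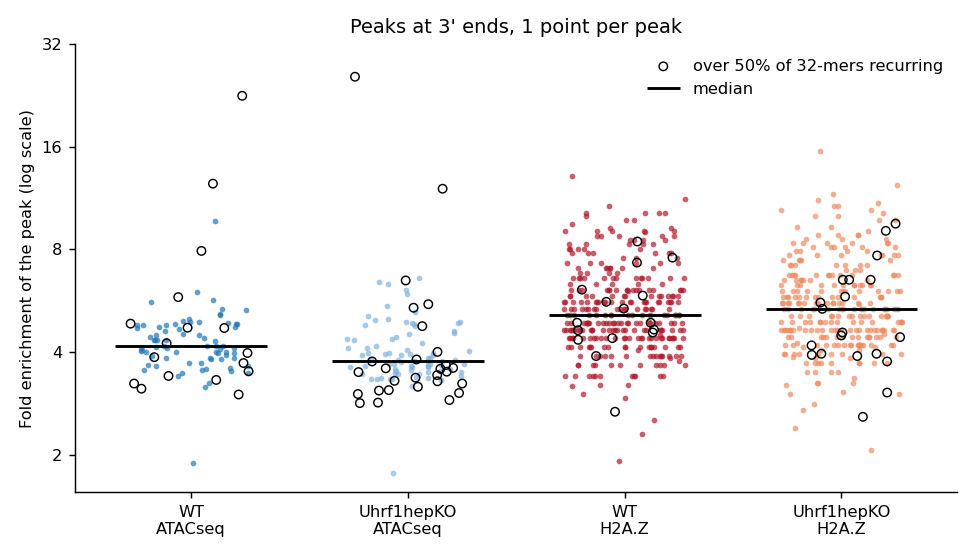
Fold enrichment of each peak at a 3′ end (y, log scale) by list (x), 1 point per peak, with the median as a bar and open circles for peaks with more than 50% recurring 32-mers. The medians were 4.15, 3.75, 5.12 and 5.35, and the highest ATACseq points, 22.6 in WT and 25.6 in Uhrf1hepKO, are open circles. Folds are not scaled between lists.

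The strongest H2A.Z peaks held mostly unique sequence, and some were wide. Iqcj had a WT peak of 13.2 that was 849 bp wide, 126 bp downstream of the 3′ end, and an Uhrf1hepKO peak of 15.6 that was 868 bp wide, with 21 CpGs under each. Tex9 had WT peaks of 9.99 and 11.2 at 647 and 965 bp, and Uhrf1hepKO peaks of 5.81, 8.37 and 9.99 over the same stretch. Hsd3b6 had a peak of 10.2 in WT and 12.3 in Uhrf1hepKO at 423 and 418 bp. None of these 3 had an ATACseq peak.

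Stard9, a kinesin gene, and Ttbk2, a tau tubulin kinase gene, converge with 3′ ends less than 1 kb apart, and share a peak of 10.7 in WT and 9.76 in Uhrf1hepKO. In WT it lay at -121 bp of Stard9, in its 3′ UTR, and in Uhrf1hepKO its summit was 246 bp from the TSS of an annotated transcript. Tdrkh, which encodes a Tudor domain protein of the piRNA pathway, had a WT peak of 10.2 at 65 bp and an Uhrf1hepKO peak of 11.2 at 51 bp, with a transcript TSS 65 and 51 bp from these summits. Gm10037 had 3 peaks in each list, of 7.80 to 9.75 in WT and 6.97 to 11.6 in Uhrf1hepKO. Gja5, a gap junction connexin gene, had WT peaks of 5.36 and 8.77 and Uhrf1hepKO peaks of 7.67 and 10.9 in its 3′ UTR. None of these genes had ATACseq at the 3′ end.

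Peaks of all 4 lists met at 12 of the 3′ ends. At Sbk2 the H2A.Z peak was inside the ATACseq peak: ATACseq had folds of 4.84 in WT and 4.37 in Uhrf1hepKO at 248 and 277 bp downstream, and H2A.Z had 9.02 and 8.83 at 243 and 241 bp. At Ube2h, a ubiquitin-conjugating enzyme gene, ATACseq peaks of 3.93 and 4.10 lay at -990 and -969 bp, and H2A.Z peaks of 6.09 and 5.81 at -704 and -672 bp. Both were in the 3′ UTR, and no TSS of any transcript was within 30 kb. At 3300002I08Rik, ATACseq of 4.91 and 4.33 lay with 2 H2A.Z peaks in each genotype, the stronger of 10.2 and 10.5. The stronger H2A.Z peak overlapped the ATACseq peak in both genotypes, and in WT its summit, at -283 bp, was inside the ATACseq peak. The weaker H2A.Z peak held 77.6% and 80.1% recurring 32-mers.

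Of the others, Mogat1, Cacna1a and Drg1 had a TSS of an annotated transcript nearby. At Mogat1, a monoacylglycerol acyltransferase gene, ATACseq peaks of 4.04 and 3.77 in an intron were 168 and 195 bp from such a TSS, and 3 WT H2A.Z peaks but 1 Uhrf1hepKO H2A.Z peak were in the region. At Cacna1a, a calcium channel gene, the ATACseq peaks of 4.49 and 3.63 were about 500 bp from such a TSS, in coding sequence with 81.1% and 81.9% GC and 48 and 27 CpGs, and H2A.Z of 6.09 to 6.74 lay on both sides in both genotypes. At Drg1, a GTP-binding protein gene named after values were seen, ATACseq peaks of 1.89 and 1.77 were 438 and 281 bp from such a TSS. At 1700001O22Rik the ATACseq peaks, of 3.70 and 3.78, were at -45 and 82 bp. Smtnl1, a smoothelin-like gene, and Ube2l6, the conjugating enzyme of ISG15, converge and share an ATACseq peak of 3.66 in WT and 4.03 in Uhrf1hepKO between their ends, with H2A.Z of 5.36 in WT and of 5.81 and 6.97 in Uhrf1hepKO.

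Peaks at the 3′ ends of liver genes were few, as at all genes. Of 176 genes of the study's list of liver enriched genes that are in the set, 3 had a WT ATACseq peak at the 3′ end (1.70%, 0.581 to 4.89%), 2 an Uhrf1hepKO ATACseq peak, and 2 an H2A.Z peak in each genotype (1.14%, 0.312 to 4.05%). These intervals include the shares of all 3′ ends, 0.761% and 0.930% for ATACseq and 2.18% and 2.08% for H2A.Z. Tat, tyrosine aminotransferase, had ATACseq peaks of 4.01 in WT and 3.36 in Uhrf1hepKO at 381 and 404 bp. Pck1, the gluconeogenic phosphoenolpyruvate carboxykinase, had a WT ATACseq peak of 3.16 that was 837 bp wide and held 20 CpGs at 730 bp, and none in Uhrf1hepKO. Serpina3k, a serine protease inhibitor gene, had a WT ATACseq peak of 3.24 over the 3′ end and none in Uhrf1hepKO. Rab43, a Rab GTPase gene, had an Uhrf1hepKO ATACseq peak of 3.38 at -456 bp and none in WT. Adh6b, an alcohol dehydrogenase gene, had H2A.Z of 5.85 and 7.67 at 31 and 11 bp, and Thpo, thrombopoietin, had H2A.Z of 4.39 and 5.35 at -60 and -86 bp.

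Genes of the study's cell proliferation list had H2A.Z more often, at 16 of 387 in each genotype (4.13%, 2.56 to 6.61%), beside 2.18% and 2.08% of all members. The interval lies just above the upper bounds of all members, 2.45% and 2.34%. The study drew the list from silenced genes of open chromatin states that it defined in part by H2A.Z and ATACseq in liver. The list was thus not independent of H2A.Z, and the higher share cannot be read as a trait of proliferation genes. All members include the genes of the list. The genes were 18 in all, with 14 in both genotypes. Named after values were seen, they included Atad2, a chromatin ATPase gene (8.04 and 9.30), Mtf2, a Polycomb subunit gene (8.77 and 10.7), Flt4, a lymphatic growth factor receptor gene (8.53 and 7.20), Polq, a DNA repair polymerase gene (8.77 and 8.60), and Clasp1, a microtubule binding protein gene (7.56 and 10.2), with the WT fold first. ATACseq was present at 2 and 3 of the 387.

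The shares of gene families were read against those of all 3′ ends, 0.761% and 0.930% for WT and Uhrf1hepKO ATACseq and 2.18% and 2.08% for H2A.Z. All the counts that follow have intervals that include these shares. Zinc finger Zfp genes had ATACseq at 1 of 265 in each genotype and H2A.Z at 5 and 3. Olfactory receptor genes, known for their use in the nose, had ATACseq at 1 of 547 in each and H2A.Z at 9 (1.65%, 0.868 to 3.10%) and 6 (1.10%, 0.504 to 2.37%), while 7 and 6 of them had H2A.Z within 1 kb of their TSS. Solute carrier genes had ATACseq at 2 and 4 of 259 and H2A.Z at 5 and 4. Protocadherin genes had H2A.Z at 2 of 45 in each genotype and no ATACseq, which allows up to 6.67%, and developmental transcription factor genes had ATACseq at 1 of 97 in each and H2A.Z at 1 and 2.

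Cytochrome P450 genes had H2A.Z at 3 of 74 in each genotype (4.05%, 1.39 to 11.3%) and ATACseq at 1 in each (1.35%, 0.239 to 7.27%), with intervals that include the shares of all 3′ ends. All 3 were of the Cyp4f cluster of chromosome 17, whose products hydroxylate fatty acids and eicosanoids, and they were named after values were seen. Cyp4f39 had H2A.Z of 4.87 in WT and 5.58 in Uhrf1hepKO, at -643 and -638 bp. Cyp4f37 had 2 H2A.Z peaks in each, of 4.63 and 4.63 in WT and 4.05 and 3.72 in Uhrf1hepKO, and a WT ATACseq peak of 4.15. Cyp4f13 had H2A.Z of 5.12 in WT and of 4.88 and 4.42 in Uhrf1hepKO, and an Uhrf1hepKO ATACseq peak of 3.35.

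Genes with a peak at the 3′ end had one at their start about as often as the others, with overlapping intervals in every list. A WT ATACseq peak lay within 1 kb of the gene's own TSS for 25.3% (17.6 to 34.8%) of the genes with such a peak at the 3′ end and for 29.5% (28.7 to 30.3%) of the others. For Uhrf1hepKO ATACseq these were 28.4% (21.0 to 37.2%) and 26.6%. For WT H2A.Z they were 46.3% (40.5 to 52.3%) and from 49.1 to 50.9% by its interval, and for Uhrf1hepKO H2A.Z 44.0% (38.1 to 50.1%) and 48.4%. Genes with a WT ATACseq peak at the 3′ end had a median length of 20.3 kb against 27.4 kb for the others, and for WT H2A.Z the medians were 27.6 and 27.4 kb.

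WT ATACseq shares were lower farther from a TSS, and those of H2A.Z differed less. WT ATACseq was present at 1.01% (0.760 to 1.33%) of the 3′ ends 5 to 10 kb from the nearest TSS and at 0.111% (0.0196 to 0.625%) of those more than 50 kb away, and WT H2A.Z at 2.01% (1.65 to 2.45%) and 1.88% (1.18 to 2.99%). Uhrf1hepKO ATACseq was at 1.22% (0.942 to 1.57%), 0.745%, 0.894% and 0.332% (0.113 to 0.972%) from 5 to 10 kb, 10 to 20 kb, 20 to 50 kb and beyond, with outer intervals that overlap. Just outside the limit of the set, at 4 to 5 kb from a TSS, 0.726% of 1377 3′ ends had WT ATACseq and 2.90% had WT H2A.Z. Just inside it, at 5 to 6 kb, these were 0.810% and 1.54% of 1235. The WT H2A.Z intervals, 2.14 to 3.93% outside and 0.987 to 2.39% inside, overlapped. In the next classes, WT H2A.Z was at 2.24% from 3 to 4 kb and 2.65% from 6 to 7 kb.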

How the data were processed

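ATACseq and H2A.Z ChIPseq were measured in whole liver, in 1 library per genotype and assay. Alignment by the authors was to GRCm38.p4, by BWA-MEM, followed by PICARD. Their MACS2 peak calls were made library by library, and in broad mode for ATACseq, and the paper gives a p-value of 0.05. The largest q-values in the lists were 0.0997 in WT and 0.0993 in Uhrf1hepKO for ATACseq, and 0.0500 and 0.0489 for H2A.Z. The lists thus appear to end at a q-value limit that the paper does not give. The paired-end option was used for ATACseq although its reads are described as single-end. The mode of the H2A.Z calls, a control library, the MACS2 version and the handling of reads with several placements are not given in the sources used here. The submitters' processing notes also name FastQC 0.11.5 and Trimmomatic. The deposited score is 10 times the −log10 q-value as the authors' caller wrote it. The deposited fold enrichment is the ratio of the pileup to the local background, a mean over the peak for ATACseq and the summit value for H2A.Z. The authors' caller likewise wrote the −log10 p- and q-values. Since libraries were not scaled to each other, folds were compared only within a list.

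GENCODE vM21 gave gene ends, TSSs and transcripts, and the RefSeq FASTA of GRCm38 gave the sequence. A peak was at a 3′ end when it overlapped the region by at least 1 bp. Its position is the centre for ATACseq and the summit for H2A.Z. Other distal peaks are those more than 5 kb from every gene TSS that touch no 3′ end region. Shares have Wilson 95% intervals, densities exact Poisson intervals, and a count of 0 allows 3 counts. Every 32-mer under a peak was counted on both strands of the genome, and recurred when found more than once.

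Members, lists and tests were chosen with earlier results of these data known. Genes named are the 5 with the highest fold in each list, the 8 best ranked of those with peaks of all 4 lists, the 3 with most WT H2A.Z peaks, and the liver enriched genes with a peak. The liver enriched and cell proliferation lists are the study's. The sequence under 1 ATACseq peak is not reported here. The H2A.Z sequences and the genes followed over 3 places were added after values were seen. Each step was tested on simulated data with known answers. Windows, thresholds, distances and overlap rules were varied. The software was numba 0.67.0, pysam 0.24.0, numpy 2.4.6, scipy 1.17.1, pandas 2.3.3 and matplotlib 3.10.9 under Python 3.11.15.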

Additional observations from a re-analysis of the deposited data

How the results depend on the processing

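Of 122 values recomputed for 12 results under 12 alternatives, 97 stayed within their counting intervals and 25 moved. With a −log10 q of at least 2, ATACseq was at 0.545% of 3′ ends in WT and 0.481% in Uhrf1hepKO, and 41.5% of WT peaks were shared. With folds at or above the list median, the shares for WT and Uhrf1hepKO ATACseq and WT and Uhrf1hepKO H2A.Z were 0.345%, 0.297%, 1.26% and 1.16%, 36.6% of WT ATACseq peaks were shared and 66.7% lay downstream. Regions of 500 bp on each side gave 0.433%, 0.561%, 1.25% and 1.19%, and of 2 kb 1.44%, 1.92%, 3.90% and 3.65%, as follows from their size. For 3′ ends over 10 kb from every gene TSS, ATACseq was at 0.610% and 0.753%, and 63.4% of WT peaks lay downstream. When 50% of both peaks had to overlap, 7.69% of WT and 0.909% of Uhrf1hepKO ATACseq peaks overlapped H2A.Z, 37.4% of WT ATACseq peaks were shared and so were 54.0% of WT H2A.Z peaks. Of 2 alternatives chosen after seeing the data, leaving out peaks of mainly recurring sequence gave 0.713% for Uhrf1hepKO ATACseq, and leaving out the stretch of chromosome 14 moved no value. Apart from the shorter lists and regions by construction, the cause was not tested. No paired analysis was possible because each genotype had 1 library per assay and the labels carry no replicate numbers, and for the same reason no replicate could be left out. Sites below the callers' thresholds are missing from the lists, the depth is an estimate, and the labels do not say whether both assays used the same mouse.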
